A study of Mus musculus with 2 samples.

Results

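Collagen chain genes were defined as the rows of the deposited gene table that are protein-coding and whose symbol reads Col, a type number, a and a chain number. The rule found 44 genes of 27 collagen types among 54532 genes. Transcripts were counted by RNA sequencing in CT26, a mouse colon carcinoma cell line. One culture was made to express mouse Oct4 together with human SOX2 from lentivirus, and the control culture received lentivirus with the empty vector. Both cultures were in RPMI 1640 with 10% serum and were collected after 4 days. The genotype label of the control reads wild type. The sources used here do not say how infected cells were selected or how many clones a culture held. Each group had 1 library, so no test across samples was possible and every difference given is between these 2 libraries. The type I chain gene Col1a2 was the most abundant collagen transcript in both and was higher with Oct4 and SOX2, while its partner Col1a1 was lower. Col28a1 and Col5a2 were far higher with Oct4 and SOX2, and of the measured basement membrane genes Col4a1, Col4a2 and Col18a1 were lower and Col4a5 was higher, each by less than 2-fold.

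Collagens are extracellular matrix proteins in which 3 chains wind into a common helix. Each turn needs a glycine, so a helical stretch is a run of triplets that begin with glycine, often with proline in the other positions. Fibrillar collagens assemble into fibrils, and most have 1 long unbroken run. Type IV chains have an interrupted run and form the sheet of basement membranes. FACIT collagens sit on fibril surfaces, and types XV and XVIII, the multiplexins, carry sugar chains and lie near basement membranes. In tumours, collagen is made largely by fibroblasts, and carcinoma cells contribute basement membrane chains.

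The repeat that defines the family was read from the coding sequence of each gene's principal transcript in GENCODE M21 (build GRCm38). The first 30 codons of the longest unbroken run are printed below for the chains on which the results turn. Capitals mark the glycine codon that opens each triplet.
Col28a1, chromosome 6, minus strand, codons 277 to 306: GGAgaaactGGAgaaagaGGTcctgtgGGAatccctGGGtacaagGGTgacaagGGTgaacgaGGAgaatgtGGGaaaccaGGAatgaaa
Col5a2, chromosome 1, minus strand, codons 211 to 240: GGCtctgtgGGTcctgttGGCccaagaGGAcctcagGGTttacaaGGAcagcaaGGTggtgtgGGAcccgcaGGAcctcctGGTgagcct
Col1a2, chromosome 6, plus strand, codons 97 to 126: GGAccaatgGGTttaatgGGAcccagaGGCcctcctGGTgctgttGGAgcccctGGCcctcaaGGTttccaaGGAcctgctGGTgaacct
Col1a1, chromosome 11, plus strand, codons 168 to 197: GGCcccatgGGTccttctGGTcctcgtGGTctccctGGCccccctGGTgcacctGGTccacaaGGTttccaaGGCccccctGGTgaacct
Col4a1, chromosome 8, minus strand, codons 43 to 72: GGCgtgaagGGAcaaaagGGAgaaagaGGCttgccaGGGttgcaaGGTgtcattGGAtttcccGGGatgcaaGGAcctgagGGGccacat

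All 44 genes held a run of at least 5 such triplets, against 336 of 21684 other protein-coding genes (1.55%). The longest run had 338 triplets in Col1a1, 339 in both Col1a2 and Col5a2, 40 in Col4a1 and 28 in Col28a1. The longest run of the 11 fibrillar genes spanned 216 to 344 triplets. Col24a1, at 216, and Col27a1, at 217, had a broken repeat, with a further run of 93 triplets in each. Among the 6 type IV genes the longest run spanned 39 to 66. Proline codons took the last position of 28.1% of the triplets in Col28a1 and 28.05% in Col1a2, the lowest shares among the expressed chains, and of 55.9% in Col4a5. Coding exons of exactly 54 bases, the length of 6 triplets, made up 47.0% of coding exons in the fibrillar genes, 23.45% over all 44 genes and 0.442% in the other protein-coding genes. Col5a2 had 24 such exons of 54 and Col28a1 had 2 of 34. The long unbroken run of Col5a2 and the short, often broken runs of Col28a1 are near the ends of the range among the expressed chains.

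**Figure D1:**
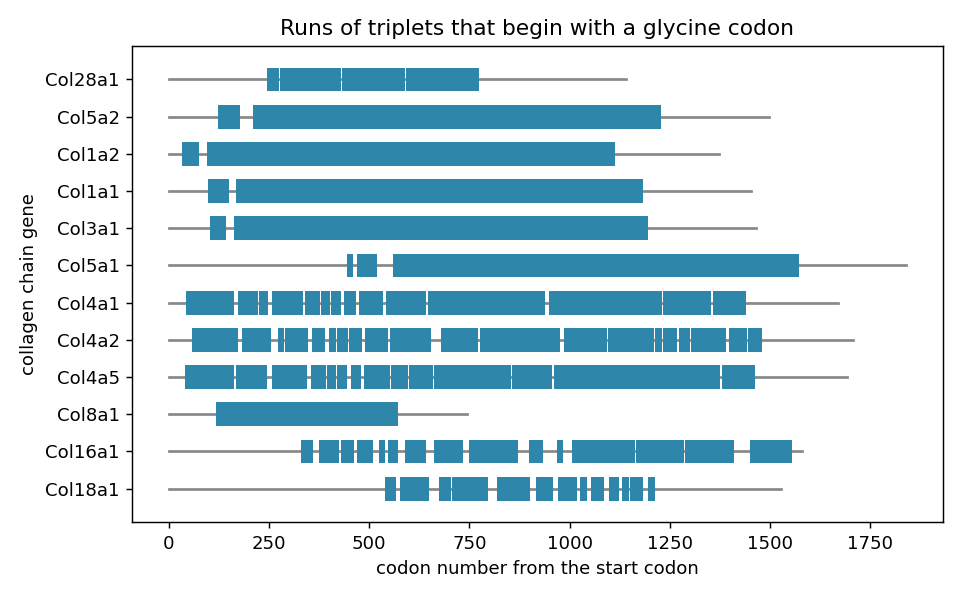
Runs of at least 5 triplets that open with a glycine codon (blue blocks) along the coding sequence (grey line) of 12 collagen chain genes, by codon number from the start codon. Col5a2, Col1a2, Col1a1, Col3a1 and Col5a1 have a single long block beside 1 or 2 short ones, whereas Col28a1 has 17 runs, Col4a1 22 and Col18a1 16, with breaks of a few codons too narrow to see at this scale.

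The Oct4 and SOX2 library held 31521115 gene-assigned reads and the control library 32262408. Levels are given in FPKM, fragment counts scaled by the authors to gene length and library size. A gene was called measured at 1 FPKM or more in at least 1 library. Pou5f1, the gene for Oct4, had 12406 reads in the Oct4 and SOX2 library and 0 in the control, and the virus and the cells' own gene cannot be told apart. Mouse Sox2, which the human SOX2 of the virus need not match, was at 23.3 FPKM with Oct4 and SOX2 and 14.1 FPKM in the control. Of 10 epithelial markers, 3 were measured, with a summed level of 41.7 FPKM with Oct4 and SOX2 and 32.7 FPKM in the control. Epcam had 2 reads with Oct4 and SOX2 and 1 in the control, and Cdh1 had 0 in both, so these adhesion markers were at or near 0 in cells labelled as a colon cancer line. The measured ones were Krt20, at 28.3 FPKM with Oct4 and SOX2 and 14.9 FPKM in the control, Krt18, at 11.3 and 15.2 FPKM, and Lgals4, at 1.87 and 1.89 FPKM. Of 12 fibroblast and mesenchymal markers 5 were measured, with a sum of 1330 FPKM with Oct4 and SOX2 and 896 FPKM in the control, and Postn and Lum had 0 reads. Vim gave 966 FPKM of that sum with Oct4 and SOX2 and 599 FPKM in the control, and Fn1 342 and 267 FPKM. Pdgfrb went the other way, at 4.93 FPKM with Oct4 and SOX2 and 14.1 FPKM in the control. It was the only measured marker at least 2-fold different on the log2 scale of FPKM + 1. Of all measured genes, 2.42% were at least 2-fold higher and 1.85% at least 2-fold lower on that scale. Markers below 1 FPKM in both libraries also differed in reads, in both directions. Tek had 86 reads with Oct4 and SOX2 and 17 in the control, Acta2 25 and 4, and Comp 10 and 0. Krt8 had 2 and 21, and Matn1 0 and 16. Of 8 chondrocyte and bone markers 2 were measured, and the list summed to 14.7 FPKM with Oct4 and SOX2 and 13.8 FPKM in the control. Sox9 was at 4.197 FPKM with Oct4 and SOX2 and 6.99 FPKM in the control, and Runx2 at 10.2 and 6.10 FPKM. None of 4 endothelial, 4 leukocyte and 4 muscle markers was measured, and each of these sums was below 1 FPKM in both libraries. In these bulk cultures, fewer cells that express a gene and less RNA per cell cannot be told apart, and the part of the marker levels in the collagen values was not tested.

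Of the 44 collagen chain genes, 16 were measured, 8 had at least 20 reads in 1 library but stayed below 1 FPKM, 16 had 1 to 19 reads at most and 4 had 0 reads in both libraries. Collagen chain reads were 172499 with Oct4 and SOX2, or 0.547% of gene-assigned reads (exact 95% binomial interval 0.545 to 0.550), against 131167 in the control, or 0.407% (0.404 to 0.409). Scaled by the library totals implied by the FPKM, the ratio of collagen chain reads was 1.32 (95% counting interval 1.31 to 1.33). Those totals were 1.01 and 0.989 times the gene-assigned reads, with Oct4 and SOX2 and in the control, so this is not the ratio of the 2 percentages. The interval does not cover that choice of total. Col1a2 alone gave 70.2% of the collagen reads with Oct4 and SOX2 and 55.8% in the control. Without Col1a2 the order reversed, with 51484 reads in the Oct4 and SOX2 library and 57962 in the control, 1.12-fold lower (1.11 to 1.14). Counting intervals cover counting error only, since copies made by PCR are not independent molecules and cultures vary.

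On the log2 scale of FPKM + 1, which understates the difference of low genes, 2 of the 16 measured genes, Col28a1 and Col5a2, were at least 2-fold higher with Oct4 and SOX2 and 0 were at least 2-fold lower. Over all 12401 measured genes 2.42% were at least 2-fold higher and 1.85% at least 2-fold lower, and over the 10276 protein-coding ones 1.39% and 1.07%. Both genes passed 1 FPKM only in the Oct4 and SOX2 library and so could enter the count only as higher. The other 14 reached 1 FPKM in both libraries and lay within 2-fold, 4 with a log2 ratio above 0 and 10 below. The median log2 ratio was -0.30 over the 16 measured genes and -0.01 over the 12401, and it was -0.01 over all 44 members. The counting interval excluded a ratio of 1 for 16 of 16 measured collagen genes, against 67.3% of all measured genes and 71.9% of protein-coding ones. These intervals narrow with the number of reads, which was not matched between the sets. They do not cover the variation between cultures.

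**Figure D2:**
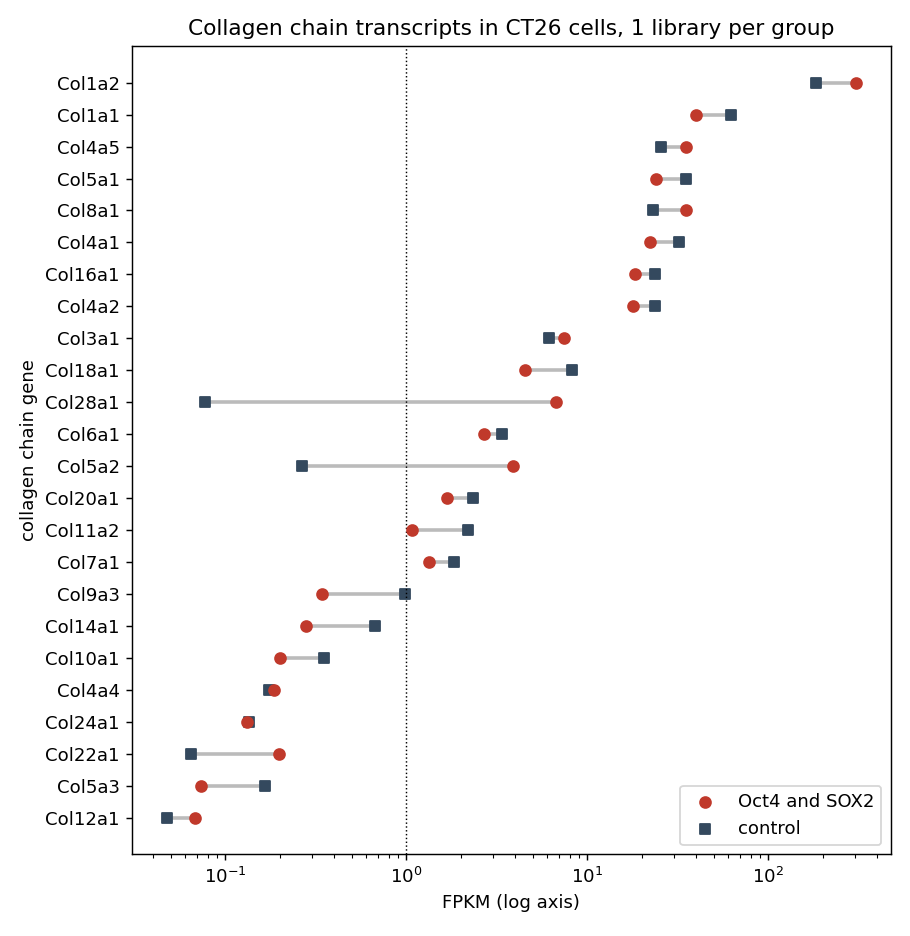
FPKM (log axis) of the 24 collagen chain genes with at least 20 reads in 1 library, with Oct4 and SOX2 (red circles) and in the control (dark squares); the dotted line marks 1 FPKM. Col28a1 and Col5a2 are far apart between the libraries, while Col1a2 is highest in both, at 306 FPKM with Oct4 and SOX2 and 185 FPKM in the control.

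Among the fibrillar genes the partner chains of types I and V stood on opposite sides of the control. Col1a2, which encodes the alpha 2 chain of type I collagen, was at 306 FPKM with Oct4 and SOX2 and 185 FPKM in the control, 1.66-fold higher (1.64 to 1.67) from 121015 and 73205 reads. Col1a1, the alpha 1 chain of the same trimer, was at 40.0 FPKM with Oct4 and SOX2 and 62.1 FPKM in the control, 1.55-fold lower (1.51 to 1.60). Col1a2 lies on chromosome 6 from 4504814 to 4541544 and Col1a1 on chromosome 11 from 94936224 to 94953042 in GRCm38. They ranked first and second among the 44 genes in both libraries. Col5a2, the alpha 2 chain of type V collagen, which nucleates type I fibrils, was at 3.90 FPKM with 1193 reads in the Oct4 and SOX2 library and 0.265 FPKM with 81 reads in the control, 14.8-fold higher (11.8 to 18.7). Its partner Col5a1 was at 23.9 FPKM with Oct4 and SOX2 and 35.3 FPKM in the control, 1.47-fold lower (1.43 to 1.52). Type V summed over its chains was therefore lower, at 27.9 FPKM with Oct4 and SOX2 and 35.7 FPKM in the control. Col3a1, the single chain of type III collagen, which shares fibrils with type I in soft tissues, was at 7.46 FPKM with Oct4 and SOX2 and 6.13 FPKM in the control, 1.22-fold higher (1.14 to 1.29). Col11a2, a chain of the cartilage collagen type XI, was at 1.08 FPKM with Oct4 and SOX2 and 2.20 FPKM in the control. The plain ratio was 2.03-fold lower (1.74 to 2.39), which on the FPKM + 1 scale is a log2 ratio of -0.62.

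Within each library, the ratio of partner chains was read as FPKM over FPKM. Type I collagen is usually built from a pair of Col1a1 chains and a single Col1a2 chain. The Col1a1 over Col1a2 level ratio was 0.131 with Oct4 and SOX2 (0.128 to 0.134) and 0.336 in the control (0.330 to 0.343), so the alpha 2 transcript exceeded its partner in both. The ratio was 2.57-fold lower with Oct4 and SOX2 (2.50 to 2.65, an approximate 95% counting interval on the log scale). The Col5a1 over Col5a2 level ratio was 6.13 with Oct4 and SOX2 (5.77 to 6.53) and 133 in the control (107 to 168), 21.7-fold lower (17.3 to 27.3). For type IV, the Col4a1 over Col4a2 level ratio was 1.25 with Oct4 and SOX2 (1.20 to 1.31) and 1.37 in the control (1.32 to 1.42), 1.09-fold lower (1.03 to 1.15). The Col6a1 over Col6a2 level ratio was 55.1 with Oct4 and SOX2 (31.8 to 104) and 64.2 in the control (37.9 to 118), with 13 and 14 reads of Col6a2. Other pairs rest on few reads of 1 partner. The Col4a5 over Col4a6 level ratio was 636 with Oct4 and SOX2 (379 to 1164) and 1615 in the control (630 to 5930), 2.54-fold lower with an interval that includes no difference (0.836 to 7.72). The Col8a1 over Col8a2 level ratio was 2527 with Oct4 and SOX2 (699 to 20872) and 474 in the control (229.9 to 1179), 5.33-fold higher (1.11 to 25.7). The deposited length of Col1a2 is 12426 bases, equal to the union of the exons of all its transcripts, and its principal transcript has 5348. With principal transcript lengths the Col1a1 over Col1a2 ratio became 0.0623 with Oct4 and SOX2 and 0.160 in the control. Other pairs moved too. The Col5a1 over Col5a2 ratio became 4.28 with Oct4 and SOX2 and 93.0 in the control, and the Col6a1 over Col6a2 ratio 27.9 and 32.5. For every pair the difference between the libraries is the same by construction, and the counting intervals do not cover the choice of length.

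**Figure D3:**
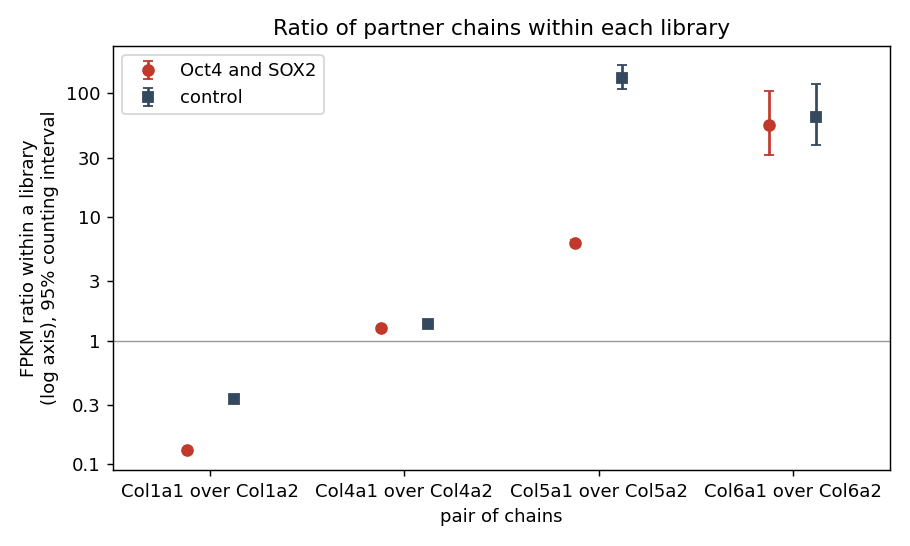
Ratio of FPKM of 2 partner chains within a library (log axis), with Oct4 and SOX2 (red circles) and in the control (dark squares); bars are exact 95% counting intervals and the grey line marks equal levels. The pairs of types I and V are apart between the libraries, and Col4a1 over Col4a2 and Col6a1 over Col6a2 lie close together.

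In the basement membrane network, the common and the X-linked chains differed in sign. Col4a1 was at 22.3 FPKM with Oct4 and SOX2 and 32.3 FPKM in the control, 1.45-fold lower (1.40 to 1.498). Col4a2 was at 17.8 FPKM with Oct4 and SOX2 and 23.6 FPKM in the control, 1.32-fold lower (1.27 to 1.38). These genes encode the chains of the most widespread type IV trimer. Col4a5, a chain of the kidney glomerular and smooth muscle basement membranes, was at 35.0 FPKM with Oct4 and SOX2 and 25.4 FPKM in the control, 1.38-fold higher (1.33 to 1.43). It was the highest of the 6 type IV genes with Oct4 and SOX2, where Col4a1 was the highest in the control. Its partners were nearly absent. Col4a3 had 7 and 12 reads, Col4a6 14 and 4 reads, and Col4a4 63 and 59 reads, with Oct4 and SOX2 and in the control.

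Col8a1, a short-chain network collagen made by vascular and corneal cells, was at 35.3 FPKM with Oct4 and SOX2 and 23.2 FPKM in the control, 1.53-fold higher (1.48 to 1.58). It ranked number 3 among the 44 genes with Oct4 and SOX2 and number 8 in the control. The second type VIII gene, Col8a2, had 2 reads with Oct4 and SOX2 and 7 in the control.

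Of the measured genes of the other classes, 1 multiplexin, 2 FACIT, 1 anchoring fibril and 1 beaded filament gene were lower with Oct4 and SOX2 by less than 2-fold, among the 10 of 16 measured collagen genes with a log2 ratio below 0 (62.5%, against 51.7% of all measured genes). Col18a1, the basement membrane multiplexin from which endostatin is cut, was at 4.53 FPKM with Oct4 and SOX2 and 8.22 FPKM in the control, 1.82-fold lower (1.68 to 1.96). Col16a1, a FACIT collagen, was at 18.2 FPKM with Oct4 and SOX2 and 23.7 FPKM in the control, 1.30-fold lower (1.25 to 1.35). Col20a1, also a FACIT, was at 1.68 FPKM with Oct4 and SOX2 and 2.35 FPKM in the control, 1.40-fold lower (1.19 to 1.64). Col18a1 and Col20a1 overlap other transcribed genes, whose reads may be shared. Col7a1, the anchoring fibril chain that ties epithelia to stroma, was at 1.34 FPKM with Oct4 and SOX2 and 1.84 FPKM in the control, 1.37-fold lower (1.21 to 1.56). Col6a1, a chain of the beaded microfibrils, was at 2.70 FPKM with Oct4 and SOX2 and 3.38 FPKM in the control, 1.25-fold lower (1.09 to 1.44). Its partners were almost unread, Col6a2 with 13 reads with Oct4 and SOX2 and 14 in the control, and Col6a3 with 9 and 10.

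Col28a1, which encodes a collagen with von Willebrand factor A domains and many short breaks in its helix, was at 6.68 FPKM with 1044 reads in the Oct4 and SOX2 library and 0.0767 FPKM with 12 reads in the control. The plain ratio was 87.2 (49.7 to 169), and its log2 ratio on the FPKM + 1 scale was 2.83. It ranked number 10 of the 44 genes with Oct4 and SOX2 and number 22 in the control, and gave 0.605% of the collagen reads with Oct4 and SOX2.

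**Figure D4:**
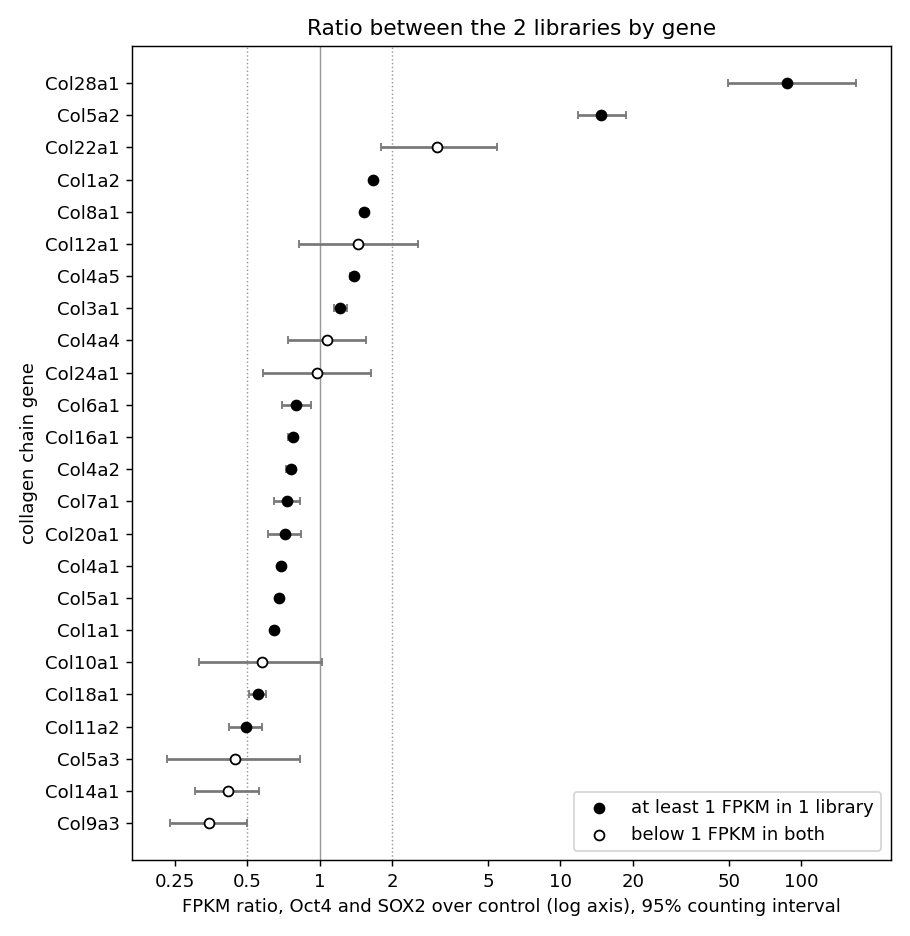
Plain FPKM ratio, Oct4 and SOX2 over control (log axis), with exact 95% counting intervals for the 24 genes with at least 20 reads in 1 library; filled points reached 1 FPKM in at least 1 library. Col28a1 at 87.2 and Col5a2 at 14.8 stand apart from the other filled points, which lie between 0.491 and 1.66.

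Below 1 FPKM, the 8 genes with at least 20 reads were Col9a3, Col14a1, Col10a1, Col4a4, Col24a1, Col22a1, Col5a3 and Col12a1. Col9a3, a FACIT of cartilage, had 42 reads with Oct4 and SOX2 and 121 in the control, at 0.342 FPKM with Oct4 and SOX2 and 0.984 FPKM in the control, and was 2.88-fold lower (2.01 to 4.19). It was the only gene of the 44 with a counting interval wholly beyond 2-fold on the lower side, and Col28a1 and Col5a2 were the only ones on the higher side. Among all 25530 genes with a read, 1.59% passed that rule as lower and 1.89% as higher. Col14a1, another FACIT, had 62 reads with Oct4 and SOX2 and 150 in the control, 2.42-fold lower (1.79 to 3.30). Col22a1, a FACIT of tissue junctions, had 58 reads with Oct4 and SOX2 and 19 in the control, 3.06-fold higher (1.79 to 5.44). Col5a3, the type V chain restricted to a few tissues, had 16 reads with Oct4 and SOX2 and 36 in the control. The counting interval of Col4a4, Col24a1, Col12a1 and Col10a1 included a ratio of 1. Col9a1, Col11a1, Col13a1 and Col27a1 had 0 reads in both libraries, where 3 reads, the limit a count of 0 allows, correspond to 0.0186 FPKM with Oct4 and SOX2 and 0.0185 FPKM in the control for Col9a1.

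**Figure D5:**
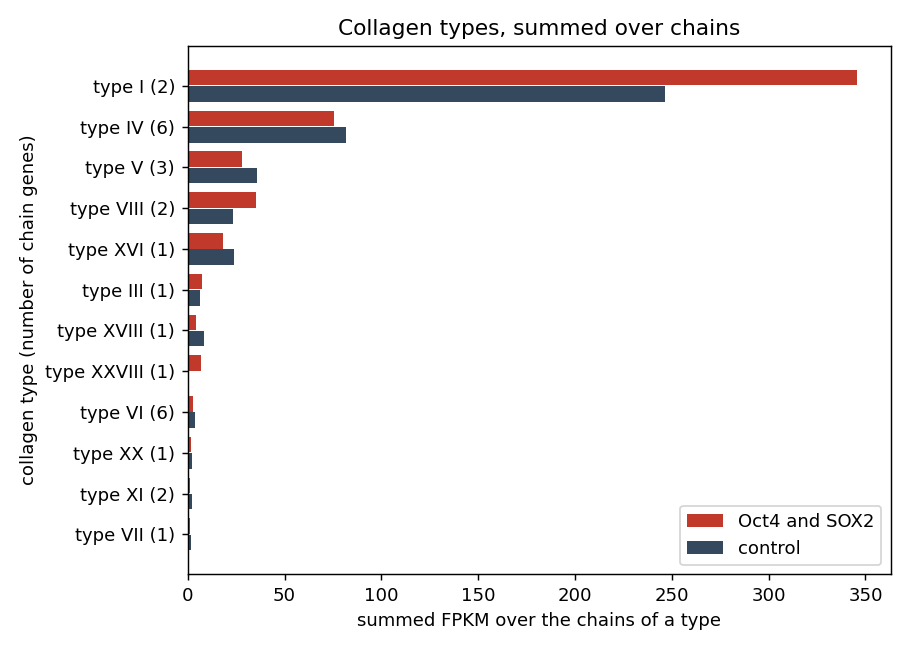
Summed FPKM over the chains of each collagen type with at least 1 measured gene, with Oct4 and SOX2 (red, upper bar) and in the control (dark, lower bar); the number of chain genes is in brackets. Type I is highest, at 346 FPKM with Oct4 and SOX2 and 247 FPKM in the control; types I, III, VIII and XXVIII are higher with Oct4 and SOX2 and the other 8 types are lower.

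Several collagen genes lie side by side. In the pairs named here both genes went the same way, but not always by a similar ratio. Col4a1 and Col4a2 (chromosome 8) are transcribed away from each other and overlap by 22 bases in the deposited coordinates, and both were lower by a similar ratio. Col4a6 and Col4a5 (chromosome X) have the same arrangement with a gap of 1308 bases, and Col4a5 had 7501 reads with Oct4 and SOX2 and 5444 in the control, where Col4a6 had 14 and 4. Col5a2, on chromosome 1 from 45374321 to 45503282 in GRCm38, ends 24614 bases from the end of Col3a1, which it faces, and the plain ratios were 14.8 for Col5a2 and 1.22 for Col3a1. On its other side the nearest protein-coding gene, Wdr75, was at 19.7 FPKM with Oct4 and SOX2 and 25.3 FPKM in the control. Col28a1 lies on chromosome 6 from 7997808 to 8192617. The nearest protein-coding genes on either side, C1galt1 and Mios, had plain ratios of 1.32 (1.26 to 1.39) and 1.18 (1.10 to 1.27), and Asns and Rpa3 beyond them 0.718 (0.704 to 0.733) and 0.978 (0.909 to 1.05). The large ratios of Col28a1 and Col5a2 were not shared by the protein-coding genes next to them.

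Promoter windows from RefSeq (GRCm38.p6), 250 bases before to 50 after a gene's start, were at hand for 35 of the 44 genes in 38 windows. The letters searched on both strands were ATGCAAAT, the octamer that POU factors bind, ATTGTT, a SOX core, TGANTCA, the AP-1 element, and TATAAA, the TATA box. The octamer stood in 2 of the 38 windows, Col3a1 and Col25a1, and in 1.74% of all 32851 windows. The SOX core stood in 1 window, that of Col3a1, and in 10.7% of all. AP-1 stood in 1, that of Col6a1, and in 7.81% of all. The TATA box stood in 5, and in 13.6% of all. The 250 bases before the start are printed for Col3a1, the gene with octamer, SOX core and TATA letters, and for Col28a1 and Col1a2, which had none of the 4. Capitals mark the letters found, and the run of 10 capitals in Col3a1 holds the SOX core on both strands, overlapping.
Col3a1, chr1:45311288-45311537, plus strand: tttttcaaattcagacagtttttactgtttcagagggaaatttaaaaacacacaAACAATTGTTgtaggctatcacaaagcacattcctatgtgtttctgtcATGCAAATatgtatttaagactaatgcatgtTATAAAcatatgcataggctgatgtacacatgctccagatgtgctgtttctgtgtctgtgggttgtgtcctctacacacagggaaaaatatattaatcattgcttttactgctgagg
Col28a1, chr6:8192618-8192867, minus strand: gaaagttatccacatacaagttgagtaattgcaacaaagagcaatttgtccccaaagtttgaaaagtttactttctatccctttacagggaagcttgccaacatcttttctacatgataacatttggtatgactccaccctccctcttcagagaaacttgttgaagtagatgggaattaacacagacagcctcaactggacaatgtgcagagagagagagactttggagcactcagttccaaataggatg
Col1a2, chr6:4505368-4505617, plus strand: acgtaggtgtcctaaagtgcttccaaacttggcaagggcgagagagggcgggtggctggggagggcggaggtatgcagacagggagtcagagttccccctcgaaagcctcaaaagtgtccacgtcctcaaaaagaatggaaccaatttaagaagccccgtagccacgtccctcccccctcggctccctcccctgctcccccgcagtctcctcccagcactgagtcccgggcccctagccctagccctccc
In Col3a1 the octamer begins at position -148 from the start and the SOX core letters at positions -196 and -192. A match in these windows is a description of letters and not a site, and binding of either factor to these genes was not tested.

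A list of 48 genes was drawn from general knowledge of how collagen is modified, folded, exported, cut and cross-linked. Not every gene on it acts on collagen itself, and 34 of the 48 were measured. On the FPKM + 1 scale 0 were at least 2-fold higher or lower, where 2.42% and 1.85% of all measured genes were. Their log2 ratios were above 0 for 11 and below 0 for 23, with a median log2 ratio of -0.06. The lowest, -0.78, was that of Pycr1, named after its value was seen. Pycr1 was at 2.38 FPKM with Oct4 and SOX2 and 4.79 FPKM in the control, 2.02-fold lower in plain FPKM (1.75 to 2.32). The 5 most expressed were all lower. Hspa5, the general endoplasmic reticulum chaperone BiP, was at 358 FPKM with Oct4 and SOX2 and 596 FPKM in the control, 1.66-fold lower (1.65 to 1.68). Serpinh1, the collagen-specific chaperone HSP47, was at 185 FPKM with Oct4 and SOX2 and 289 FPKM in the control, 1.56-fold lower (1.53 to 1.59). P4hb, the beta subunit of prolyl 4-hydroxylase, was at 270.01 and 297 FPKM, Pcolce, which enhances cutting of the C-propeptide, at 200.3 and 228 FPKM, and Sparc, a matrix protein that binds collagen, at 68.5 and 81.6 FPKM, with Oct4 and SOX2 and in the control.

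Among the enzymes that act on the chains, some were higher with Oct4 and SOX2 and others lower. These examples were chosen after their values were seen. P4ha1 and P4ha2, the catalytic prolyl 4-hydroxylase subunits, were 1.19-fold (1.15 to 1.24) and 1.55-fold higher (1.47 to 1.64) with Oct4 and SOX2. Plod2, the lysyl hydroxylase of the telopeptides, was 1.40-fold higher (1.33 to 1.48), while its paralogue Plod1 was 1.41-fold lower (1.34 to 1.47). Pxdn, the peroxidase that forms sulfilimine cross-links in type IV collagen, was at 9.54 FPKM with Oct4 and SOX2 and 4.96 FPKM in the control, 1.92-fold higher (1.81 to 2.05). P3h1, a prolyl 3-hydroxylase, was 1.76-fold lower (1.61 to 1.93). Pcolce2, a paralogue of Pcolce, had 22 reads with Oct4 and SOX2 and 0 in the control. Of the lysyl oxidases, Lox had 2 reads with Oct4 and SOX2 and 0 in the control, and Loxl4 was at 56.6 FPKM with Oct4 and SOX2 and 57.9 FPKM in the control. Of the N-propeptide proteinases, Adamts2 and Adamts3 had 0 reads in both libraries, and Adamts14 was at 2.36 FPKM with Oct4 and SOX2 and 2.98 FPKM in the control.

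Of 12 collagen receptors, 6 were measured and 0 passed 2-fold on the FPKM + 1 scale. Of all measured genes, 2.42% were at least 2-fold higher and 1.85% at least 2-fold lower on that scale, so a count of 0 among 6 genes says little. The integrin subunit gene Itgb1 was at 270.4 FPKM with Oct4 and SOX2 and 213 FPKM in the control. The 4 alpha subunits that pair with it to bind collagen were below 1 FPKM in both libraries. Itga1 had 4 reads with Oct4 and SOX2 and 3 in the control, Itga2 46 and 36, and Itga11 8 and 6. Itga10 had the most, 86 reads with Oct4 and SOX2 and 156 in the control, 1.81-fold lower (1.38 to 2.38). Ddr2, a receptor kinase for fibrillar collagen, was at 61.5 FPKM with Oct4 and SOX2 and 72.5 FPKM in the control. Cd44, which also binds hyaluronan, was at 60.2 FPKM with Oct4 and SOX2 and 50.5 FPKM in the control. Mrc2, the endocytic receptor that takes up collagen, chosen after its value was seen, was at 1.85 FPKM with Oct4 and SOX2 and 4.45 FPKM in the control, 2.40-fold lower in plain FPKM (2.14 to 2.71).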

How the data were processed

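RNA sequencing libraries of 2 CT26 cultures were compared, 1 per group, grouped by the genotype and treatment labels. The authors deposited 1 table of FPKM values with gene length and position. Per the submitters' processing notes, the tools were HISAT2, featureCounts 1.5.0-p3 and CASAVA, with build GRCm38, and per the labels' protocols total RNA went into a NEBNext Ultra kit. Not given in the sources used here are the annotation release, the FPKM formula, the use of strand and the handling of reads with several matches. Without strand, reads of overlapping genes cannot be told apart.

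Whole reads were recovered from the FPKM, since 100% of FPKM and length products were a multiple of a single library-specific step within 0.001 of a read. Library totals implied by the FPKM were 1.01 and 0.989 times the summed reads, with Oct4 and SOX2 and in the control. Ratios are plain FPKM ratios with exact conditional binomial (Clopper-Pearson) 95% counting intervals, and log2 ratios use a pseudocount of 1 FPKM. A count of 0 allows 3 reads. Gene lengths equalled the exon union in GENCODE M21 for 42 of the 44 collagen genes. No protein table was used, and the repeats were read as codons. The interval and the fold rule were run on simulated reads with counting error only. That simulation does not cover copies made by PCR or variation between cultures.

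The members and lists were chosen with earlier results of these data known. Named genes were all measured collagen genes, those with an interval beyond 2-fold or at least 20 reads, and the 5 most expressed biosynthesis and 3 most expressed receptor genes. The classes follow general knowledge of collagen types. Alternatives were pseudocounts of 0.1 and 5 FPKM, no filter, a filter of 5 FPKM, centring, plain read totals, rescaling without the 50 highest genes and a counting interval beyond 2-fold. Principal transcript lengths were a later choice, made with the data in view. Figures were drawn with matplotlib 3.10.9, tables handled with pandas 2.3.3 and intervals computed with scipy 1.17.1 and numpy 2.4.6 under Python 3.11.15.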

Additional observations from a re-analysis of the deposited data

How the results depend on the processing

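Filters, pseudocounts and lengths cannot turn the sign of a single gene's ratio. Under centring, plain read totals and rescaling without the 50 highest genes, which can, the 16 measured genes had the sign of the main value. The count of collagen genes at least 2-fold higher was 2 in the main setting and fell to 1, Col28a1, with a pseudocount of 5 FPKM, where Col5a2 had a log2 ratio of 0.76, and to 1 with a filter of 5 FPKM, which Col5a2 does not reach. Among the measured genes, the count at least 2-fold lower was 0 under every alternative run, as were both counts of the biosynthesis list. The median log2 ratio was -0.13 with a pseudocount of 5 FPKM and -0.013 without a filter, which adds genes with few reads, against -0.30. With principal transcript lengths, chosen after seeing the data, the Col28a1 and Col5a2 log2 ratios were 3.01 and 2.27. No paired analysis was possible because each group holds 1 library, and for the same reason no replicate could be left out. Depth limits the 16 genes with 1 to 19 reads at most: the counting interval included a ratio of 1 for these except Col4a6, higher with Oct4 and SOX2, and Col6a4, lower, with 0 reads with Oct4 and SOX2 and 9 in the control.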

Other observations

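Some collagen genes share their stretch of genome with other genes, and the use of strand is not given. Slc19a1, on the opposite strand and overlapping Col18a1, had 1116 reads with Oct4 and SOX2 and 1002 in the control, where Col18a1 had 1013 and 1843. The noncoding gene 9230112E08Rik, on the same strand as Col20a1 and overlapping it, had 393 reads with Oct4 and SOX2 and 565 in the control, where Col20a1 had 275 and 385. Nt5dc1, opposite Col10a1, had 550 and 460 reads, where Col10a1 had 20 and 35. No other gene in the table with a read overlaps Col28a1 or Col5a2.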
